A study of Caenorhabditis elegans with 19 samples.

Results

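The change in gonadal RNA after depletion of GRWD-1 was set against the change after depletion of TSR-2, over every feature of the count table in which reads with several map positions are divided among them. The members are 11 of the study's 19 RNA-seq libraries: 3 auxin and 3 ethanol libraries of the GRWD-1 strain ESC422, and 3 auxin and 2 ethanol libraries of the TSR-2 strain ESC420. Both are Caenorhabditis elegans strains built to lose the named protein through an auxin-inducible degron, a tag that sends its carrier for destruction once auxin, a plant hormone, is given. Synchronized hermaphrodites were moved at the late L4 larval stage to plates with 1 mM auxin (IAA), or with ethanol, the solvent, and gonads were dissected from young adults after 18 h, with 20 gonads pooled per replicate. The labels name neither the promoter that drives the degron's partner protein nor any auxin-treated animals without a degron, so effects of auxin itself would be shared by both strains. Total RNA was sequenced after a stranded library preparation that included PCR.

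A ribosome is built from a large subunit, which holds the 26S, 5.8S and 5S rRNAs, and a small subunit, which holds the 18S rRNA. RNA polymerase I makes 18S, 5.8S and 26S as a single precursor, in which the spacer ITS1 lies between 18S and 5.8S and the spacer ITS2 between 5.8S and 26S. In yeast and human cells the GRWD-1 homologue (Rrb1, GRWD1) binds the large-subunit protein RPL3, and in yeast Tsr2 escorts the small-subunit protein Rps26, so the pair of strains sets a large-subunit chaperone against a small-subunit chaperone within one series of libraries.

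Total fractional counts were 15918362 to 30983372 in 10 of the 11 libraries, of which 1931448 to 8946727 lay outside rRNA and its repeat. TSR-2 auxin replicate 3 stood apart with 328549 counts, 44288 of them outside rRNA, and 3 counts there equal 55.7 CPM (counts scaled to a fixed total of counts outside rRNA), against 0.367 to 1.60 CPM in the other libraries. Values without it are given where they bear on a result. The library numbers in the labels fall into 3 runs, each with GRWD-1 auxin, GRWD-1 ethanol and TSR-2 auxin libraries, and 2 of them with a TSR-2 ethanol library. Deviations from the group means were correlated across features with a mean of at least 50 CPM, without TSR-2 auxin replicate 3. The mean correlation was 0.602 over 12 pairs of libraries from the same run, and -0.282 over 25 other pairs. Deviations of a group sum to 0, and with 2 libraries in each TSR-2 group they mirror each other. The negative value of the other pairs is therefore no separate support for the runs. These runs are called library-number blocks below, and the labels do not say what the libraries of a run share. Summed markers of germ cells were 4190 to 7596 CPM and those of oocytes 6000.2 to 10394 CPM in all libraries, against at most 20.2 CPM for sperm markers.

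The ratio of 26S to 18S counts was lower in GRWD-1 auxin gonads and higher in TSR-2 auxin gonads than in the ethanol gonads of the same strain. The GRWD-1 auxin libraries had ratios of 0.500, 0.834 and 0.528, against 0.857, 1.19 and 1.16 in GRWD-1 ethanol libraries. The TSR-2 auxin libraries had ratios of 2.24, 2.93 and 2.36, against 1.41 and 1.14 in TSR-2 ethanol libraries. In both strains the auxin libraries stood clear of the ethanol libraries, and the 3 TSR-2 auxin libraries, the shallow one included, lay above all other libraries. On the log2 scale the change was -0.81 in the GRWD-1 strain and 0.97 in the TSR-2 strain, a difference of -1.78 ± 0.34 (SE). In a two-sided exact permutation test that regrouped libraries within each strain, 1 of 200 regroupings gave a difference as large (p = 0.005, the smallest possible; 0.035 after Benjamini-Hochberg adjustment over 7 rRNA measures). Without TSR-2 auxin replicate 3 the difference was -1.82 (exact p = 0.0167). That test is of no change in either strain, and within 1 strain it cannot give a p under 0.1, the value each strain reached. Within library-number blocks the log2 change was -0.78, -0.51 and -1.13 in the GRWD-1 strain and 1.05 in both TSR-2 blocks that hold auxin and ethanol libraries.

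The 26S share was lower in GRWD-1 auxin libraries and higher in TSR-2 auxin libraries than in the ethanol libraries of the strain, without overlap in either, while the 18S share was without overlap in TSR-2 and overlapped in GRWD-1. In the GRWD-1 strain 26S made up 24.7% ± 2.44 of all counts in auxin libraries and 40.7% ± 3.49 in ethanol libraries (SD, n = 3 each), while 18S made up 41.3% ± 7.20 in auxin libraries and 38.5% ± 3.71 in ethanol libraries, which overlapped. For the TSR-2 strain, 18S made up 22.1% ± 2.51 in auxin libraries and 34.7% ± 3.41 in ethanol libraries (n = 3 and 2). For 26S the TSR-2 shares were 53.7, 56.4 and 54.6% in auxin libraries, against 45.6 and 42.4% in ethanol libraries, with no overlap. Counting error is small beside these gaps: even in TSR-2 auxin replicate 3 the 95% Wilson interval of the 26S share is 54.4 to 54.7%. Shares of counts are not corrected for rRNA length, and in bulk gonads fewer cells of a type and less RNA per cell cannot be told apart.

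**Figure D1:**
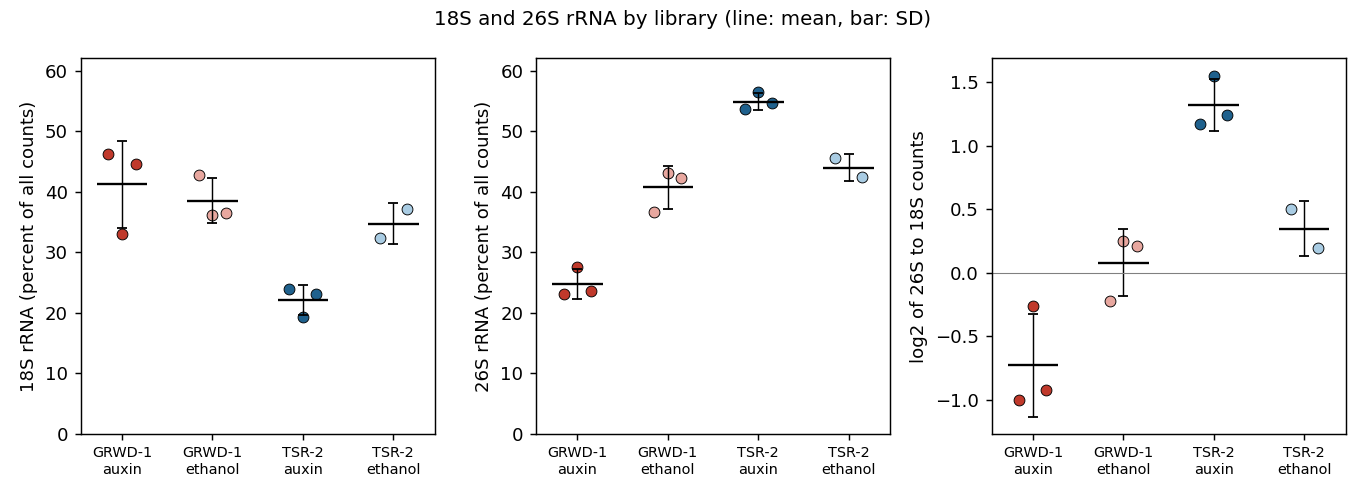
Shares of all counts on 18S and 26S rRNA, and log2 of the 26S to 18S count ratio, for the 11 libraries (points; line, group mean; bar, SD). The 26S share of GRWD-1 auxin libraries lies below 28% and the 18S share of TSR-2 auxin libraries below 24%, and the log2 ratio is below 0 in all 3 GRWD-1 auxin libraries and above 1 in all 3 TSR-2 auxin libraries.

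Relative to counts outside rRNA, 26S fell in the GRWD-1 strain and 18S had similar negative values in both. In edgeR's quasi-likelihood test the log2 change of 26S was -1.99 ± 0.18 (SE, adjusted p 0.000447) in GRWD-1 and -0.05 ± 0.20 (adjusted p 0.944) in TSR-2. For 18S it was -1.13 (adjusted p 0.0850) in GRWD-1 and -1.04 (adjusted p 0.171) in TSR-2, and with library-number blocks both were called (adjusted p 5.74e-06 in GRWD-1 and 0.000149 in TSR-2). The difference between the strains was -1.94 ± 0.27 for 26S (adjusted p 0.0574, 0.324 without TSR-2 auxin replicate 3, and 9.49e-06 with the blocks) and -0.10 for 18S (95% interval -0.95 to 0.75). F31C3.14 lies opposite the end of 26S on chromosome I, and WBGene00004677 and F31C3.16 lie opposite each other ahead of 18S. In the order F31C3.14, F31C3.16 and WBGene00004677 they had log2 changes of -2.04, -2.17 and -2.02 in GRWD-1 and -0.08, 0.09 and -0.05 in TSR-2. Their values were close to those of 26S. Reads of F31C3.14 cannot be told apart from those of 26S here, as the strand setting of the counting is not given in the sources used here.

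5.8S joins 26S in the large subunit, and its ratio to 18S also differed between the strains. This ratio shares its 18S counts with the 26S to 18S ratio, so it is not a separate result. As a share of all counts, 5.8S overlapped between auxin and ethanol libraries in both strains. The TSR-2 shares were 0.484, 0.465 and 0.517% in auxin libraries, against 0.279 and 0.581% in ethanol libraries. The log2 ratio of 5.8S to 18S was -6.63, -6.55 and -6.64 in GRWD-1 auxin libraries, against -6.20, -6.61 and -6.03 in GRWD-1 ethanol libraries. In the TSR-2 strain it was -5.63, -5.37 and -5.48 in auxin libraries, against -6.86 and -5.997 in ethanol libraries. GRWD-1 libraries overlapped and TSR-2 libraries did not. The mean change was -0.33 in GRWD-1 and 0.93 in TSR-2, a difference of -1.26 ± 0.47 (exact p = 0.01, adjusted 0.035). Within blocks the GRWD-1 change was -0.43, 0.06 and -0.61, so its sign was not shared by all blocks.

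The spacers, parts of the precursor that the mature rRNAs lack, gave no difference between the strains that passed the test. ITS1 made up 0.242% ± 0.0226 of counts in GRWD-1 auxin libraries and 0.168% ± 0.0136 in GRWD-1 ethanol libraries, with no overlap, and 0.140% ± 0.0108 in TSR-2 auxin libraries against 0.127% ± 0.0449 in TSR-2 ethanol libraries, with overlap. Relative to 18S, ITS1 had a log2 change of 0.44 in GRWD-1 and 0.84 in TSR-2 (difference -0.40, exact p = 0.495). ITS2 relative to 26S had 0.31 in GRWD-1 and -0.33 in TSR-2 (difference 0.64, exact p = 0.255). The 5′ external spacer, 5ETS, relative to 18S had 0.93 in GRWD-1 and 0.08 in TSR-2 (difference 0.84, exact p = 0.25). The log2 ratio of ITS2 to ITS1 changed by -0.94 in GRWD-1 and -0.20 in TSR-2 (difference -0.74 ± 0.36, exact p = 0.205). None of these 4 differences passed the test. The SE of each, taken without blocks, was 0.36 or more, so the test could miss differences of that size. For ITS2 to ITS1 the GRWD-1 auxin libraries (log2 2.86, 2.59 and 3.25) lay below the GRWD-1 ethanol ones (3.72, 3.47 and 4.31), and TSR-2 libraries overlapped. Within library-number blocks the ITS2 to ITS1 change was -0.86, -0.88 and -1.07 in GRWD-1, and -0.28 and -0.43 in TSR-2. No test of this ratio was run within blocks.

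**Figure D2:**
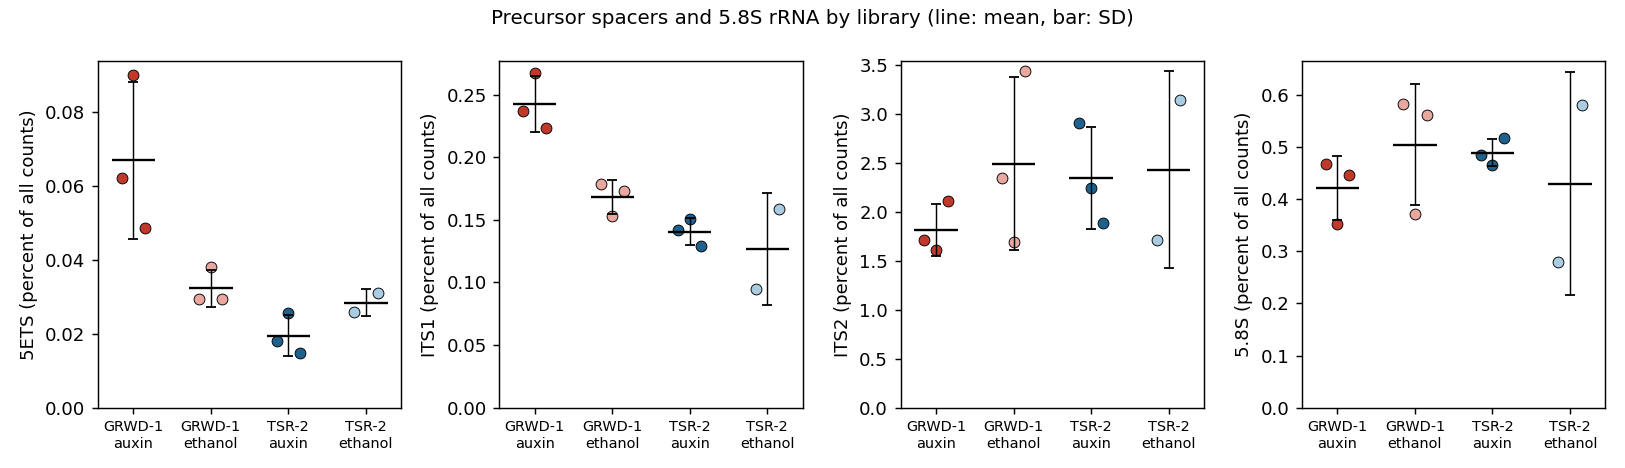
Shares of all counts on the precursor spacers 5ETS, ITS1 and ITS2 and on 5.8S rRNA, by library (points; line, group mean; bar, SD). ITS1 and 5ETS are higher in GRWD-1 auxin libraries than in GRWD-1 ethanol libraries without overlap, whereas ITS2 overlaps between auxin and ethanol libraries in both strains.

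The share of all rRNA was lower in every GRWD-1 auxin library than in any other library, but the difference between the strains' changes missed the threshold. rRNA made up 70.3, 61.2 and 68.9% of counts in GRWD-1 auxin libraries, against 80.4, 79.9 and 79.6% in GRWD-1 ethanol libraries. In the TSR-2 strain it made up 78.4, 76.3 and 78.5% in auxin libraries, against 78.3 and 80.3% in ethanol libraries. The change was -13.2 percentage points in GRWD-1, without overlap, and -1.61 points in TSR-2, with overlap (difference -11.6 ± 3.1 SE, exact p = 0.075, adjusted 0.175). Protein-coding genes took 19.3, 30.4 and 19.9% of counts in GRWD-1 auxin libraries, against 8.43, 11.1 and 8.64% in GRWD-1 ethanol libraries. CPM below are scaled to counts outside rRNA, so a gene can keep its CPM while its share of all counts rises.

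Across all features, the rRNA repeat included, calls shared by the strains all had the same direction. Of 9463 features tested, 22 were higher and 16 lower in GRWD-1 auxin gonads (0.402% called at an adjusted p under 0.05; 1005 features or 10.6% at an unadjusted p under 0.05). Of the 16 lower ones 4 are features of the rRNA repeat or its flank, 26S, F31C3.14, F31C3.16 and WBGene00004677. In TSR-2 auxin gonads 3 were higher (0.0317%) and 10 lower, which is 0.137% called, with 1246 features or 13.2% at an unadjusted p under 0.05. Leaving out 1 library left 9 (without GRWD-1 auxin replicate 2) to 74 (without TSR-2 ethanol replicate 2) calls in GRWD-1, and 0 (without TSR-2 auxin replicate 1) to 45 (without GRWD-1 auxin replicate 2) in TSR-2. RLE size factors turned the GRWD-1 split to 39 higher and 67 lower, and library totals the TSR-2 split to 13 higher and 21 lower. Auxin and ethanol libraries did not overlap for 19.2% of features in GRWD-1 (11.7% higher, 7.53% lower) and for 29.1% in TSR-2 (8.78% higher, 20.3% lower). These shares are not comparable between the strains. With 10 regroupings in TSR-2, against 20 in GRWD-1, separation arises more often without any change. A lack of overlap therefore says less in TSR-2. The features lower in TSR-2 include some with few or 0 counts in TSR-2 auxin replicate 3. The test of the difference itself called 0 features (0%), with 371 at an unadjusted p under 0.05 (3.92%), and DESeq2 called 19. With library-number blocks 664 features were called in GRWD-1 (7.02%, with 4.16% higher and 2.85% lower) and 550 in TSR-2 (5.81%, with 2.64% higher and 3.17% lower). For the difference there were 10 (0.106%, with 0.0317% higher and 0.074% lower). Under these blocks 205 features (2.17%) were called in both strains in the same direction, which is 30.9% of the GRWD-1 calls and 37.3% of the TSR-2 calls, and 0 were called in opposite directions. Across the 3532 features with a mean of at least 50 CPM the log2 changes of the strains had a Spearman rho of 0.566. Over all 9463 it was 0.451, and 0.159 without TSR-2 ethanol replicate 2, 0.193 without GRWD-1 ethanol replicate 1 and 0.241 without GRWD-1 auxin replicate 2. The strains share no library, but blocks hold libraries of both, and features are not independent replicates. On simulated counts the difference test recovered 2% of log2 changes of 1 and 63% of those of 2 placed in GRWD-1, and 3% and 71% of those placed in TSR-2.

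**Figure D3:**
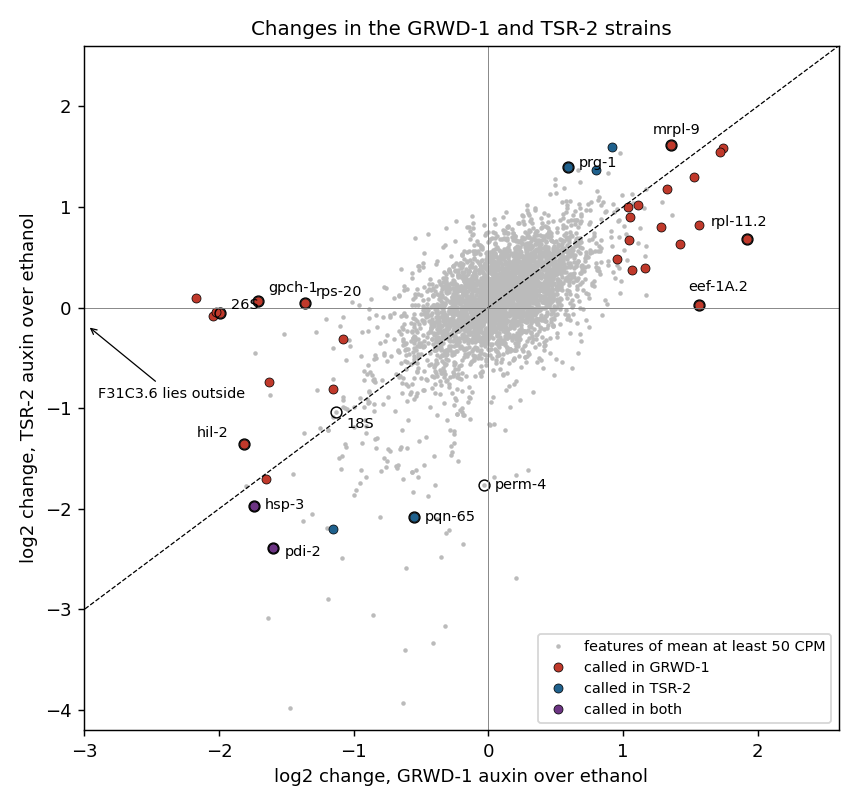
Log2 change in the TSR-2 strain against log2 change in the GRWD-1 strain for features with a mean of at least 50 CPM, with calls at an adjusted p under 0.05 coloured. The dashed line marks equal changes. 26S, gpch-1 and rps-20 lie between -1.99 and -1.36 on the GRWD-1 axis and between -0.05 and 0.07 on the TSR-2 axis, while hsp-3 and pdi-2 are low on both. F31C3.6 lies outside the axes at -6.70 in GRWD-1 and -0.18 in TSR-2.

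The 10 features whose difference was called with library-number blocks were the 4 rRNA-repeat features above, rps-20, gpch-1 and inf-1, whose GRWD-1 change was the lower one, and pqn-65, kin-14 and ZC178.2, whose GRWD-1 change was the higher one. kin-14 and ZC178.2 are outside the naming rule, with means of 5.63 and 8.59 CPM, below what TSR-2 auxin replicate 3 can show.

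rps-20 (WBGene00004489, chromosome I 14468332 to 14469103, minus strand) encodes a protein of the small subunit and fell in the GRWD-1 strain. It had 319.5, 285 and 221 CPM in GRWD-1 auxin libraries, against 571, 786 and 763 CPM in GRWD-1 ethanol libraries. In the TSR-2 strain it had 645, 773 and 724 CPM in auxin libraries, against 728 and 657 CPM in ethanol libraries. The GRWD-1 auxin libraries lay below all 8 others, and the TSR-2 libraries overlapped. The log2 change was -1.36 ± 0.20 in GRWD-1 (SE, adjusted p 0.0107) and 0.04 ± 0.23 in TSR-2 (adjusted p 0.962), a difference of -1.40 ± 0.31 (adjusted p 0.669, and 0.00800 with the blocks). Its annotated span overlaps another gene.

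gpch-1 (WBGene00011109, plus strand of chromosome III, 4408551 to 4412217) fell in the GRWD-1 strain too. It had 84.4, 63.6 and 61.05 CPM in GRWD-1 auxin libraries, against 207, 278 and 199 CPM in GRWD-1 ethanol libraries. In the TSR-2 strain it had 277, 318 and 149 CPM in auxin libraries, against 309 and 208 CPM in ethanol libraries. All GRWD-1 auxin libraries were again below the other 8. Its log2 change was -1.71 in GRWD-1 (adjusted p 0.00845) and 0.07 in TSR-2 (adjusted p 0.946), and the difference of -1.78 ± 0.37 had an adjusted p of 0.505, and of 0.000927 with the blocks. inf-1 (WBGene00002083), the translation initiation factor eIF4A, had log2 changes of -1.28 in GRWD-1 (adjusted p 0.0823, and 3.44e-06 with the blocks) and -0.24 in TSR-2 (adjusted p 0.763), and its difference of -1.04 was called with the blocks only (adjusted p 0.0233).

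Higher in the GRWD-1 strain were eef-1A.2 and rpl-11.2, both on chromosome X. eef-1A.2 (WBGene00001169, X 7823654 to 7825769, plus strand), 1 of the genes for translation elongation factor 1A, had 129, 223 and 179 CPM in GRWD-1 auxin libraries, against 50.7, 52.1 and 76.6 CPM in GRWD-1 ethanol libraries. It had 95.8, 117 and 74.3 CPM in TSR-2 auxin libraries, against 109 and 94.1 CPM in TSR-2 ethanol libraries. The ethanol libraries of GRWD-1 were below those of TSR-2, and the GRWD-1 auxin libraries were above all others. On the log2 scale the change was 1.57 ± 0.24 in GRWD-1 (adjusted p 0.0120) and 0.02 ± 0.28 in TSR-2 (adjusted p 0.991), a difference of 1.54 ± 0.36 (adjusted p 0.835). Its paralogue eef-1A.1 had -0.49 in GRWD-1 and -0.12 in TSR-2. rpl-11.2 (WBGene00004423, X 2241738 to 2242618, minus strand), 1 of the genes for large-subunit protein RPL11, had 229, 233 and 236 CPM in GRWD-1 auxin libraries, against 57.3, 43.1 and 84.3 CPM in GRWD-1 ethanol libraries. It had 214, 202 and 92.9 CPM in TSR-2 auxin libraries, against 114 and 124 CPM in TSR-2 ethanol libraries, with only the shallow library below the ethanol ones. For rpl-11.2 too, the ethanol libraries of GRWD-1 were below those of TSR-2. Its log2 change was 1.92 in GRWD-1 (adjusted p 0.00445) and 0.68 in TSR-2 (adjusted p 0.350, and 0.0405 with the blocks), with a difference of 1.23 (95% interval 0.43 to 2.04, adjusted p 0.992). Fractional counts of eef-1A.2 and rpl-11.2 were 1.00 times their counts in the authors' table of protein-coding genes in the GRWD-1 libraries.

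mrps-17, which encodes a mitochondrial small-subunit ribosomal protein, and C53H9.2 rose in GRWD-1 as well, with log2 changes of 1.42 (adjusted p 0.00693) and 1.16 (adjusted p 0.0423). In TSR-2 the values were 0.63 (adjusted p 0.304) for mrps-17 and 0.39 (adjusted p 0.504) for C53H9.2. Neither difference passed, at 0.80 and 0.77.

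Lower in the TSR-2 strain was pqn-65 (WBGene00004148, chromosome X 4610911 to 4619635, minus strand), named for a prion-like region rich in glutamine and asparagine. It had 59.6, 90.2 and 37.2 CPM in TSR-2 auxin libraries, against 313 and 299 CPM in TSR-2 ethanol libraries. In GRWD-1 it had 139, 142 and 183 CPM in auxin libraries, against 178, 232 and 271 CPM in ethanol libraries. TSR-2 libraries did not overlap, with 2 counts behind the value of the shallow library, and GRWD-1 libraries did. Its log2 change was -0.55 in GRWD-1 (adjusted p 0.351, and 0.0257 with the blocks) and -2.08 ± 0.27 in TSR-2 (adjusted p 0.0236; -2.02 without the shallow library, adjusted p 0.0464), a difference of 1.53 ± 0.35 (adjusted p 0.744, and 0.0233 with the blocks).

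perm-4 (WBGene00016638, chromosome IV 1121494 to 1125107, minus strand), needed for the permeability barrier of the eggshell, had 283, 408 and 74.3 CPM in TSR-2 auxin libraries, against 836 and 1155 CPM in TSR-2 ethanol libraries. It had 638, 776 and 1020.1 CPM in GRWD-1 auxin libraries, against 736, 901 and 851 CPM in GRWD-1 ethanol libraries. The TSR-2 auxin libraries lay below all others, and GRWD-1 libraries overlapped. The log2 change was -0.03 in GRWD-1 and -1.76 in TSR-2 (adjusted p 0.0844, and 0.00112 with the blocks; -1.52 without the shallow library, which held 4 counts), and the difference of 1.73 ± 0.49 was not called (adjusted p 0.992). far-2, of the family of proteins that bind fatty acids and retinol, had 0.04 in GRWD-1 and -1.15 in TSR-2. For cox-7C, a subunit of cytochrome c oxidase, the values were -0.27 in GRWD-1 and -1.43 in TSR-2, while imp-3 had 0.62 in GRWD-1 and -0.60 in TSR-2. None of far-2, cox-7C and imp-3 was called in either strain, but with the blocks far-2 and cox-7C were called in TSR-2 (adjusted p 0.00411 and 0.00633). The TSR-2 calls, 13 in all, fell to between 0 and 4 without any 1 of 7 libraries: GRWD-1 auxin replicates 1 or 3, GRWD-1 ethanol replicates 1 or 3, TSR-2 auxin replicates 1 or 2, or TSR-2 ethanol replicate 2.

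prg-1 (WBGene00004178, chromosome I 7585329 to 7588367, minus strand), the Piwi protein that binds piRNAs in the germline, rose in the TSR-2 strain. It had 1739, 1683 and 1690.5 CPM in TSR-2 auxin libraries, against 613.2 and 686 CPM in TSR-2 ethanol libraries. In GRWD-1 it had 826, 1014 and 874 CPM in auxin libraries, against 593, 519 and 685 CPM in ethanol libraries. Neither strain's libraries overlapped. The change was 0.60 on the log2 scale in GRWD-1 (adjusted p 0.190, and 0.00954 with the blocks) and 1.39 ± 0.21 in TSR-2 (adjusted p 0.0306), and the difference of -0.80 (95% interval -1.39 to -0.21) had an adjusted p of 0.992. A gene on the other strand overlaps it. Y66D12A.8 and C16A11.3, called higher in TSR-2 with log2 changes of 1.59 and 1.37, had 0.92 and 0.80 in GRWD-1, and the noncoding RNA Y9D1A.1, called lower in TSR-2 with -2.20, had -1.15 in GRWD-1. With the blocks these 3 were called in GRWD-1 too (adjusted p 0.000370, 0.0118 and 0.00310).

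**Figure D4:**
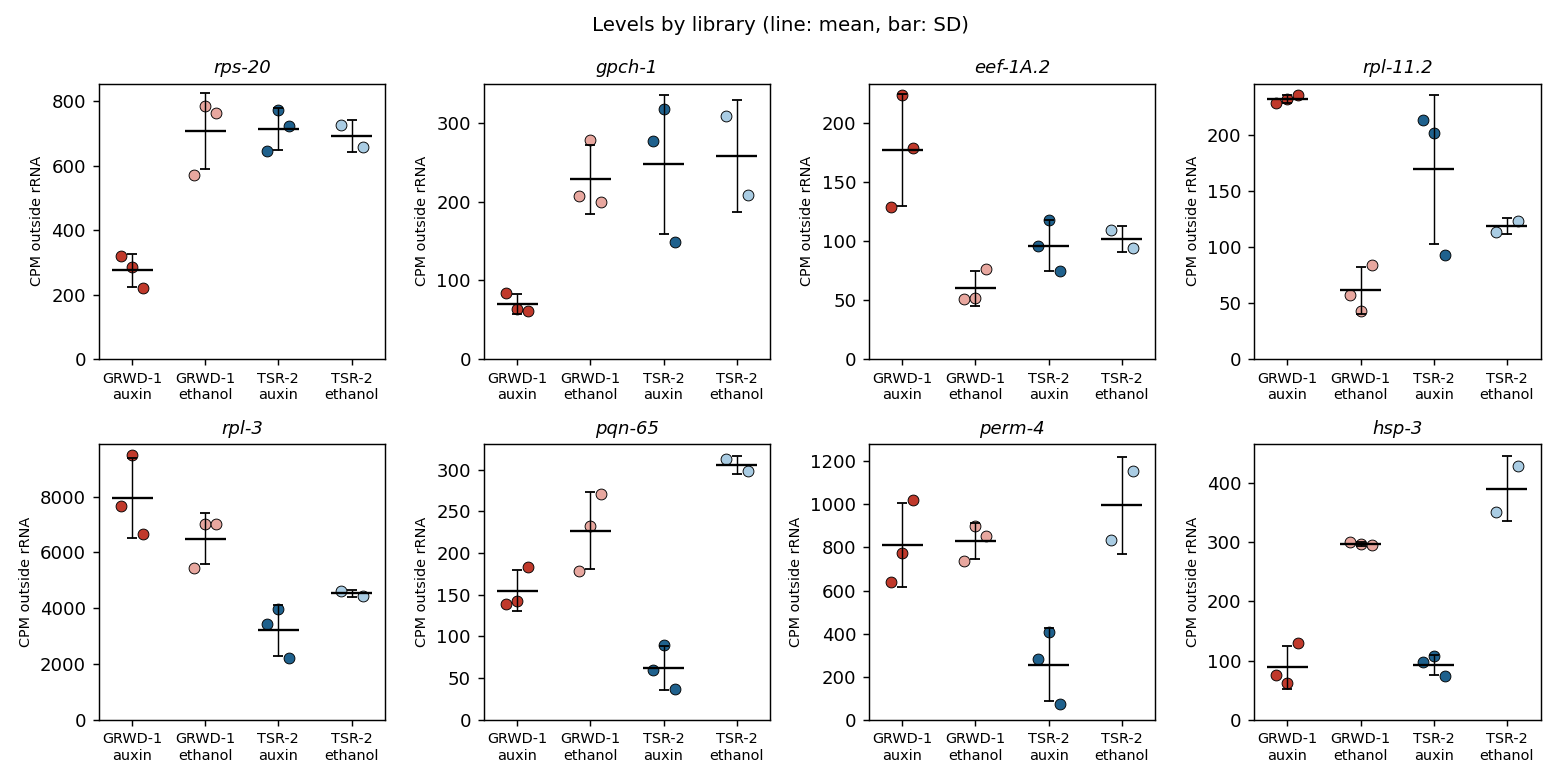
CPM outside rRNA of 8 genes in each library (points; line, group mean; bar, SD; axes start at 0). rps-20 and gpch-1 are low in the 3 GRWD-1 auxin libraries only, pqn-65 and perm-4 are lowest in TSR-2 auxin libraries, and hsp-3 is low in the auxin libraries of both strains.

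hsp-3 and pdi-2 were called in both strains (0.0211% of features), as 5.26% of the GRWD-1 calls and 15.4% of the TSR-2 calls, and both fell. hsp-3 (WBGene00002007, minus strand of chromosome X, 6089028 to 6092124), an endoplasmic reticulum Hsp70 of the BiP type, had 74.9, 61.9 and 130.3 CPM in GRWD-1 auxin libraries, against 300.4, 296 and 295 CPM in GRWD-1 ethanol libraries. It had 97.4, 107 and 74.3 CPM in TSR-2 auxin libraries, against 351 and 429 CPM in TSR-2 ethanol libraries. No auxin library of either strain reached an ethanol library. Log2 changes were -1.74 in GRWD-1 (adjusted p 0.00789) and -1.97 in TSR-2 (adjusted p 0.0306), and the 95% interval of the difference was -0.58 to 1.03. pdi-2 (WBGene00003963), a protein disulfide isomerase, had -1.60 in GRWD-1 (adjusted p 0.0489) and -2.39 in TSR-2 (adjusted p 0.0446), with an interval of -0.27 to 1.86. hil-2 (WBGene00001853), an H1 linker histone, had 35.96, 34.4 and 27.3 CPM in GRWD-1 auxin libraries, against 112, 116 and 117 CPM in GRWD-1 ethanol libraries. It had 46.8, 40.6 and 18.6 CPM in TSR-2 auxin libraries, against 135 and 80.2 CPM in TSR-2 ethanol libraries. Only 1 count lies behind the 18.6 CPM of the shallow library. hil-2 fell in GRWD-1 (log2 change -1.82, adjusted p 0.00316) and had -1.36 in TSR-2 (adjusted p 0.0789, and 0.00162 with the blocks).

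The tagged genes and the clients of the chaperones gave no difference that passed. rpl-3 (WBGene00004414, chromosome III 3867854 to 3869587, plus strand) had 7651, 9505 and 6668 CPM in GRWD-1 auxin libraries, against 5426, 7020.1 and 7034 CPM in GRWD-1 ethanol libraries. It had 3439.8, 3981 and 2211 CPM in TSR-2 auxin libraries, against 4626 and 4433 CPM in TSR-2 ethanol libraries. All TSR-2 libraries, ethanol included, lay below all GRWD-1 libraries. The log2 change was 0.29 in GRWD-1 and -0.48 in TSR-2 (difference 0.77, 95% interval 0.02 to 1.53, unadjusted p 0.0453 and adjusted p 0.992 in edgeR; 0.58 without the shallow library). rps-26 (WBGene00004495) had -0.03 in GRWD-1 and 0.11 in TSR-2 (interval -0.70 to 0.41). grwd-1 transcripts had 0.38 in GRWD-1 and 0.65 in TSR-2, and tsr-2 transcripts 0.65 in GRWD-1 and 0.96 in TSR-2, none called. With the blocks grwd-1 was called in TSR-2 (adjusted p 0.0321), and tsr-2 in GRWD-1 (0.0391) and TSR-2 (0.0166). rpoa-2, a subunit gene of RNA polymerase I, had 0.01 in GRWD-1 and 0.06 in TSR-2. The degron acts on the protein, so transcripts do not check the depletion, and protein was not measured here.

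Gene groups were described by the median log2 change of their tested members, beside medians of -0.00 in GRWD-1 and -0.14 in TSR-2 over all 9463 features (0.09 and 0.11 over the 3532 with a mean of at least 50 CPM). With the blocks 4.16% of all features were higher and 2.85% lower in GRWD-1, and 2.64% higher and 3.17% lower in TSR-2. Counts of list members called with the blocks, here and below, are to be read beside these shares. Large-subunit ribosomal protein genes, 49 tested, had medians of 0.11 in GRWD-1 and 0.04 in TSR-2, with rpl-11.2 alone called, in GRWD-1. Small-subunit ribosomal protein genes, 31 tested, had -0.01 in GRWD-1 and -0.00 in TSR-2, with rps-20 alone called, in GRWD-1. Summed over the 46 large-subunit genes with a mean of at least 50 CPM, the level was 105310, 105640 and 94482 CPM in GRWD-1 auxin libraries, against 83417, 92043 and 92627 CPM in GRWD-1 ethanol libraries, without overlap. It was 94166, 97164 and 71315 CPM in TSR-2 auxin libraries, against 81240 and 79701 CPM in TSR-2 ethanol libraries, with only the shallow library below the ethanol ones. Small-subunit sums overlapped in both strains. With the blocks 2 large-subunit genes were higher and 7 lower in GRWD-1, and 1 was higher and 1 lower in TSR-2, while 4 small-subunit genes were lower in GRWD-1 and 3 in TSR-2. The large-subunit counts of 2 higher in GRWD-1 and of 1 in each direction in TSR-2 were near the shares of all features. Of the lower large-subunit genes, rpl-12, which encodes a protein at the base of the large subunit's stalk, had -1.08 in GRWD-1 and -0.09 in TSR-2. rpl-41.2 had -1.45 in GRWD-1 and -1.65 in TSR-2.

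Ribosome assembly factors had positive medians in both strains. The 19 large-subunit factors tested had medians of 0.49 in GRWD-1 and 0.57 in TSR-2, with positive values for 19 in GRWD-1 and 18 in TSR-2. Of all 9463 features, 4711 were positive in GRWD-1 and 3923 in TSR-2. pro-1 was the member called, in GRWD-1 (1.05, adjusted p 0.0423; 0.90 in TSR-2, adjusted p 0.145), and with the blocks 8 were higher in each strain. nog-1, a nucleolar GTPase, had 0.15 in GRWD-1 and 0.81 in TSR-2, and pro-3 had 0.26 in GRWD-1 and 0.91 in TSR-2. The 22 small-subunit factors had medians of 0.40 in GRWD-1 and 0.50 in TSR-2, with 0 called, and with the blocks 7 were higher in GRWD-1 and 10 in TSR-2. nath-10, whose yeast and human homologues acetylate 18S rRNA, had 1.15 in GRWD-1 (adjusted p 0.0735) and 0.99 in TSR-2 (adjusted p 0.208). Of the 21 small-subunit factors with a mean of at least 50 CPM, 15 had the lower change in GRWD-1 (71.4%), as did 11 of 17 large-subunit factors (64.7%), against 51.8% of all features at that level. The difference between the strains was called for no factor of either subunit, with or without the blocks. Mitochondrial ribosomal protein genes, 70 tested, had medians of 0.53 in GRWD-1 and 0.43 in TSR-2. Of these mrps-17, mrps-2, mrpl-9 and mrpl-34 rose in GRWD-1 (4 of 70, against 0.232% of all features), 0 were called in TSR-2, and with the blocks 22 were higher in GRWD-1 and 8 in TSR-2. mrpl-34 is outside the naming rule and is named to complete that count. mrpl-9 had 1.36 in GRWD-1 (adjusted p 0.0488) and 1.62 in TSR-2 (adjusted p 0.0800, and 0.00166 with the blocks).

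Proteasome subunit genes had medians of opposite sign in the strains, and none was called. The 33 tested had medians of -0.07 in GRWD-1 and 0.24 in TSR-2, and 9 were positive in GRWD-1 and 27 in TSR-2 (4711 and 3923 of all 9463 features). Of the 32 with a mean of at least 50 CPM, 30 had a lower change in GRWD-1 than in TSR-2 (93.8%, against 51.8% of the 3532 features at that level). Summed over these 32 genes the level was 5598, 6938 and 6665 CPM in GRWD-1 auxin libraries, against 5944, 6789.7 and 7216 CPM in GRWD-1 ethanol libraries. The sum was 8268, 8048 and 6335 CPM in TSR-2 auxin libraries, against 6646 and 6264 CPM in TSR-2 ethanol libraries. Libraries overlapped in both strains, in TSR-2 through the shallow library, and with the blocks 1 member was lower in GRWD-1 and 2 were higher in TSR-2. pbs-5, a subunit of the catalytic core, had -0.52 in GRWD-1 and 0.13 in TSR-2, and rpn-2, of the regulatory cap, had 0.10 in GRWD-1 and 0.68 in TSR-2.

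Endoplasmic reticulum folding genes had negative medians in both strains. The 31 tested had medians of -0.54 in GRWD-1 and -0.59 in TSR-2. trap-2, hsp-3 and pdi-2 fell in GRWD-1 (3 of 31, against 0.169% of all features) and hsp-3, pdi-2 and pdi-6 fell in TSR-2 (3 of 31, against 0.106%); trap-2 and pdi-6 are named to complete these counts. With the blocks 14 were lower in GRWD-1 and 9 in TSR-2. Summed over the 19 members with a mean of at least 50 CPM, the level was 4489, 5101 and 5108 CPM in GRWD-1 auxin libraries, against 7994, 9129.8 and 7406 CPM in GRWD-1 ethanol libraries. It was 4859, 5488 and 4031 CPM in TSR-2 auxin libraries, against 7058 and 8380.4 CPM in TSR-2 ethanol libraries. The auxin sums lay below the ethanol sums without overlap in each strain. ostb-1, a subunit of the oligosaccharyltransferase, had -0.73 in GRWD-1 and -0.08 in TSR-2. Cytosolic and mitochondrial heat shock chaperones, 14 tested, had medians of -0.24 in both strains, but over the 11 with a mean of at least 50 CPM the medians were -0.55 in GRWD-1 and -0.19 in TSR-2. Without TSR-2 auxin replicate 3 the TSR-2 median over those tested was -0.12. With the blocks 6 were lower in GRWD-1 and 1 in TSR-2, and the difference was called for none. hsp-60, the mitochondrial chaperonin, fell in GRWD-1 (-1.15, adjusted p 0.0497) and had -0.81 in TSR-2 (adjusted p 0.221), while hsp-90 had -0.82 in GRWD-1 and -0.19 in TSR-2.

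Genes of the eggshell had a lower median change in the TSR-2 strain, whereas for oocyte genes the sign of the TSR-2 median depended on the fit. The 17 eggshell and yolk receptor genes had medians of 0.06 in GRWD-1 and -0.31 in TSR-2, and 14 of them had a higher change in GRWD-1 (5768 of all 9463 features did). perm-2 had -0.22 in GRWD-1 and -1.52 in TSR-2, whereas cpg-3, a chondroitin proteoglycan, had -0.91 in GRWD-1 and -1.25 in TSR-2. None was called, but with the blocks perm-1 and cpg-3 were lower in GRWD-1, and in TSR-2 perm-2, perm-4 and cpg-3 were lower and egg-4 and egg-5 higher. egg-4 and egg-5, a pair of paralogues, had 0.38 and -0.02 in GRWD-1 and 0.72 each in TSR-2, where their libraries did not overlap. Fractional counts of egg-4 and egg-5 were 1.76 and 1.56 times their protein-coding counts in GRWD-1 libraries, so part of their reads have several map positions. Their values may therefore not be separate. egg-4, egg-5 and perm-1 are named here after their values were seen. The 25 RNA-binding protein genes of oocytes had medians of 0.13 in GRWD-1 and -0.10 in TSR-2, with 0 called. The TSR-2 median was -0.03 without TSR-2 auxin replicate 3 and 0.01 with the blocks, and the median difference was 0.15 and 0.12 instead of 0.30. With the blocks 2 were higher and 1 lower in GRWD-1, and 2 were lower in TSR-2. pos-1 had 0.39 in GRWD-1 and -0.52 in TSR-2, and car-1 had -0.23 in GRWD-1 and -0.81 in TSR-2. Summed levels of both lists overlapped between auxin and ethanol libraries in GRWD-1. In TSR-2 the eggshell sum was 13254, 15618 and 10291 CPM in auxin libraries, against 16851 and 16193 CPM in ethanol libraries, without overlap, and the oocyte sum overlapped. Meiotic chromosome structure genes, 26 tested, had medians of 0.04 in GRWD-1 and 0.20 in TSR-2, with 0 called, and with the blocks 1 higher and 1 lower in GRWD-1 and 1 higher in TSR-2. These block counts were near the block shares of all features.

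Vitellogenins, the yolk proteins made in the intestine, had medians of -1.08 in GRWD-1 and -1.30 in TSR-2 over 6 genes, with 0 called. With the blocks all 6 were lower in TSR-2 and 3 in GRWD-1, and the medians were -0.97 in GRWD-1 and -1.98 in TSR-2. The 6 may not be separate measures. Fractional counts of vit-3 and vit-4 were 3.37 and 3.15 times their protein-coding counts in GRWD-1 libraries, so part of their reads have several map positions. Over 11 intestinal markers, these 6 included, the summed level was 542 to 1976 CPM in GRWD-1 auxin libraries, against 864 to 4768 CPM in GRWD-1 ethanol libraries. It was 186 to 925 CPM in TSR-2 auxin libraries, against 1273 to 2066 CPM in TSR-2 ethanol libraries, without overlap. Vitellogenins gave all of the 186 CPM in TSR-2 auxin replicate 3. No marker of any cell type was at 0 in all libraries, and none was called without the blocks; with them the intestinal calls were the vitellogenins above. Body wall muscle markers, 6 genes, summed to 182 to 254 CPM in GRWD-1 auxin libraries against 139 to 153 CPM in GRWD-1 ethanol libraries, without overlap. They summed to 55.7 to 264 CPM in TSR-2 auxin libraries against 227 to 417 CPM in TSR-2 ethanol libraries, with overlap. The part of intestinal and muscle RNA in the changes of either strain was not tested. Markers of the gonadal sheath and spermatheca summed to 500.4 to 599 CPM in GRWD-1 auxin libraries against 509 to 642 CPM in GRWD-1 ethanol libraries, and to 624 to 762 CPM in TSR-2 auxin libraries against 507 to 611.3 CPM in TSR-2 ethanol libraries. let-502 gave most of each sum, with 581, 708 and 724 CPM in TSR-2 auxin libraries, against 552 and 426 CPM in TSR-2 ethanol libraries. inx-8 and inx-9 did not rise in TSR-2. inx-8 had 31.4, 19.9 and 37.2 CPM in auxin libraries against 32.3 and 55.6 CPM in ethanol libraries, and inx-9 had 6.39, 6.24 and 0 against 18.0 and 17.9 CPM.

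**Figure D5:**
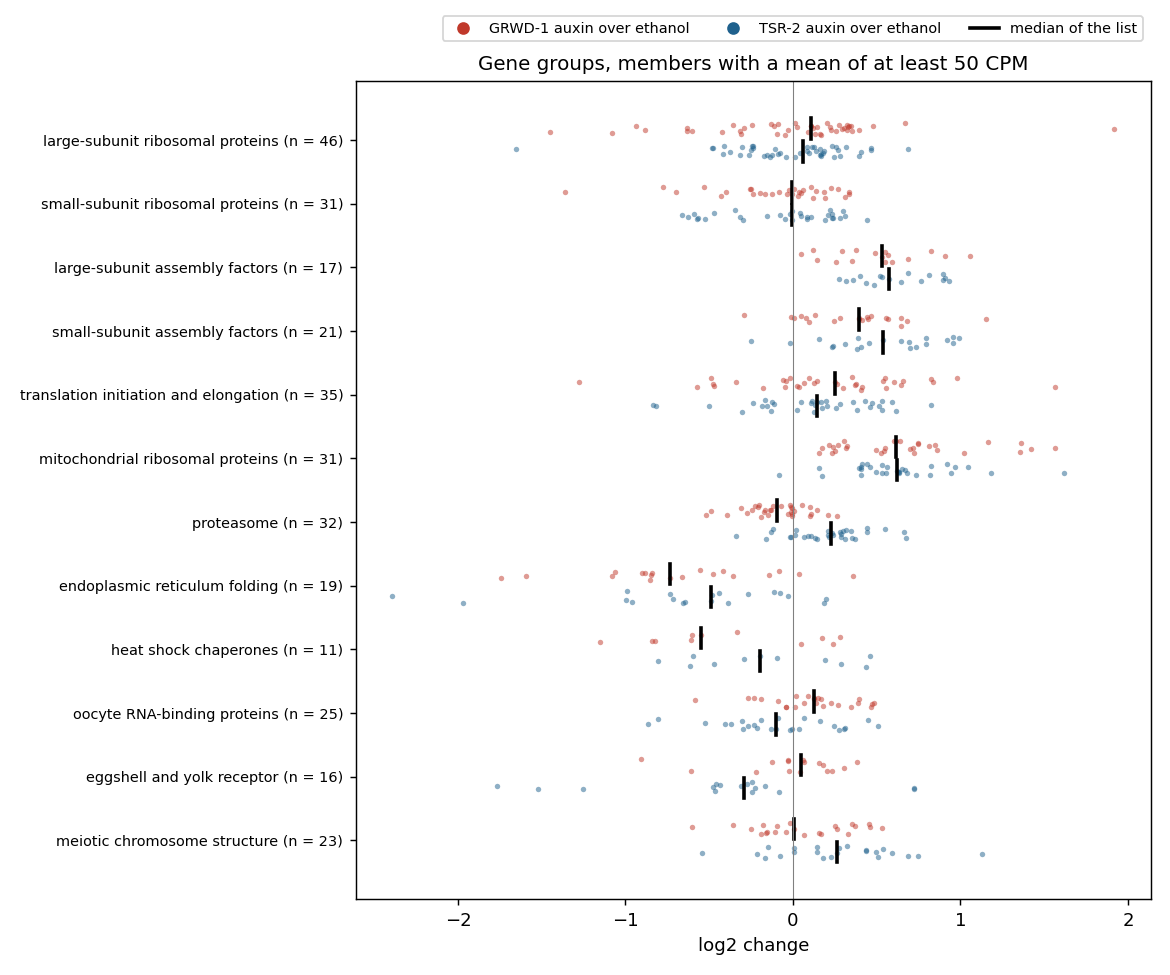
Log2 changes of the members with a mean of at least 50 CPM in 12 gene groups (points, GRWD-1 above TSR-2; black tick, median). Medians of assembly factors and mitochondrial ribosomal proteins lie above 0 and those of endoplasmic reticulum folding genes below 0 in both strains, while the proteasome medians lie on opposite sides of 0.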

How the data were processed

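Expected counts were used as deposited by the authors: fractional counts per feature, without normalization, in which a read with several map positions is divided among them (46930 features, 17 libraries). The authors' table of protein-coding counts (14 libraries, none of TSR-2) served only as a ratio per gene. Per the submitters' processing notes the tools were Trim Galore 0.6.10, HISAT2 2.2.1, Picard and featureCounts 2.0.6, with build WBcel235; strand setting and annotation are not given in the sources used here. Names and coordinates are from the Ensembl annotation of WBcel235, which holds 46926 of the features; the other 4 are the spacers. The label of each sample names its library, which gave its column, and 6 columns, of another strain, were not used.

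Counts were rounded, rRNA copies summed per class, and all 4 groups fitted together without covariates in edgeR 4.0.16 (R 4.3.3): filterByExpr, TMM, quasi-likelihood F test, Benjamini-Hochberg adjustment over 9463 features. Library sizes were the counts outside rRNA, the spacers and 2 kb around the repeat. CPM use these sizes times TMM. Limits on shares cover counting error only, as PCR reads carry no molecular identifiers. Ratios and shares used exact permutation within strains. The labels do not say that replicates are separate cultures, so p-values measure the spread between these samples.

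Same-numbered GRWD-1 libraries pair (correlations 0.485, 0.710 and 0.583), as label and library numbers coincide there. In TSR-2 same-numbered libraries did not, and library-number blocks were used in both. Alternatives used DESeq2 1.42.0, limma 3.58.1 and the settings of the closing section. Members and lists were chosen with earlier results of these data known, and the 5.8S, ITS1, ITS2 to 26S and 5ETS ratios after the values were seen. The names ebp-2, nob-1, toe-4 and eftu-2, which belong to other proteins or are of unsure role, were then taken off the lists. Named features are the tagged and client genes, the rRNA classes and spacers, and, with a mean of at least 50 CPM, the 6 smallest p of the difference in each direction, shared calls, the 4 called features per strain and direction with the largest difference among those without overlap, and per list the 2 largest differences and the largest shared change. The fit was tested on simulated data.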

Additional observations from a re-analysis of the deposited data

Results flagged for a closer look

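The log2 26S to 18S ratio was flagged because the difference of its changes passed the exact permutation test (-1.78, GRWD-1 minus TSR-2, exact p = 0.005). That test is of no change in either strain. Every GRWD-1 auxin library lay below every GRWD-1 ethanol library and every TSR-2 auxin library above every TSR-2 ethanol library.

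The log2 5.8S to 18S ratio was flagged by the same test (-1.26, exact p = 0.01; -1.26 without TSR-2 auxin replicate 3, exact p = 0.0333). This ratio shares its 18S counts with the one above and was added after the data were seen.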

How the results depend on the processing

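The difference in the log2 26S to 18S ratio kept its sign under every alternative run. It was -2.01 to -1.63 with each library left out (exact p 0.01 to 0.0167), and -1.77 with 5.8S added to 26S (exact p = 0.005). It was -1.86 within library-number blocks and -1.82 with same-numbered libraries paired, and no test was run for either. The exact test regrouped libraries of a strain across blocks. Leaving out each library gave -13.4 to -8.80 points for the rRNA share, -0.92 to -0.50 for ITS2 to ITS1, and a Spearman rho of 0.159 (without TSR-2 ethanol replicate 2) to 0.539 between the strains' changes, against 0.451.

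Counts of calls depended on the setting, and causes were not tested. Calls for the difference numbered 0, but 19 with DESeq2, 1 with limma voom quality weights, 1 with library sizes from all features, 47 without a low-count filter, 10 with library-number blocks and 24 with these blocks and without TSR-2 auxin replicate 3. For GRWD-1, against 38, and TSR-2, against 13, DESeq2 called 225 and 149, voom 127 and 22, RLE size factors 106 and 44, totals without TMM 108 and 34, no filter 175 and 304, a mean of at least 50 counts 206 and 84, protein-coding genes only 94 and 30, and unrounded counts 92 and 30. Library-number blocks gave 664 and 550, and 802 and 539 without TSR-2 auxin replicate 3. The replicate block by label number gave 132 in GRWD-1, 46 in TSR-2 and 0 for the difference, and TSR-2 label numbers did not pair libraries. TSR-2 fitted alone gave 55. In GRWD-1 the calls were 22 higher and 16 lower, but 39 and 67 with RLE and 18 and 30 with library sizes from all features; they were 71 and 154 with DESeq2. In TSR-2 they were 3 and 10, but 10 and 12 with voom, 13 and 21 with totals and 6 and 12 with all features.

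Leaving out each library gave 0 to 1 calls for the difference, 9 (without GRWD-1 auxin replicate 2) to 74 (without TSR-2 ethanol replicate 2) in GRWD-1, and 0 (without TSR-2 auxin replicate 1) to 45 (without GRWD-1 auxin replicate 2) in TSR-2. TSR-2 calls fell to 1 without GRWD-1 auxin replicate 1, GRWD-1 ethanol replicates 1 or 3, TSR-2 auxin replicate 2 or TSR-2 ethanol replicate 2, to 4 without GRWD-1 auxin replicate 3 and to 8 without TSR-2 ethanol replicate 1, and were 15 without TSR-2 auxin replicate 3. GRWD-1 calls were 9 to 18 without any 1 GRWD-1 library, and 22 and 19 without TSR-2 auxin replicates 1 and 2. Of 2443 values recomputed for named features, 0 reversed a call, 125 passed the threshold that the value reported had missed, and 70 no longer passed it. Features named only through the gene lists are not among these values. A value called in neither fit counted as unchanged, whatever its sign. RLE factors moved the median of all features to -0.11 in GRWD-1 and -0.26 in TSR-2. Depth limits TSR-2 auxin replicate 3, where features under 55.7 CPM have 3 counts or fewer.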

Other observations

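Features of chromosome X with a mean of at least 50 CPM, 55 in all, had median log2 changes of -0.45 in GRWD-1 and -0.88 in TSR-2, whereas medians of the 5 autosomes were 0.09 to 0.11 in GRWD-1 and 0.07 to 0.14 in TSR-2. The median difference of changes on X was 0.58. The X features include the vitellogenins vit-2, vit-3, vit-4 and vit-5. The 9 features of mitochondrial DNA at that level, rRNA aside, had medians of -1.04 in GRWD-1 and -0.57 in TSR-2, with a median difference of -0.54. eef-1A.2 and rpl-11.2, which rose in GRWD-1, and hsp-3, pdi-2 and pqn-65, which fell in one strain or both, lie on X.

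Small nucleolar RNAs, which guide rRNA modification, had medians of -0.63 in GRWD-1 and -1.82 in TSR-2 over 142 tested, with 0 called, and with library-number blocks 13 lower in GRWD-1 and 26 lower in TSR-2. Over all features 2.85% were lower in GRWD-1 and 3.17% in TSR-2 with these blocks. The summed level of small nucleolar RNAs followed the library numbers in part: 8522, 1405 and 8154 CPM in GRWD-1 auxin libraries, 11559, 2073 and 13830.3 CPM in GRWD-1 ethanol libraries, 2461, 920.0 and 2362 CPM in TSR-2 auxin libraries, and 809 and 9489.9 CPM in TSR-2 ethanol libraries. The 4 libraries of the middle run of library numbers, replicate 2 of GRWD-1 auxin, GRWD-1 ethanol and TSR-2 auxin and replicate 1 of TSR-2 ethanol, held the 4 lowest levels. TSR-2 auxin replicates 1 and 3, at 2461 and 2362 CPM, each lay below all other libraries of their own run. With the blocks the median difference was 0.57 instead of 1.17.

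F31C3.6, on chromosome I from 15053608 to 15058994, beside the rRNA repeat, averaged 26.8 ± 4.36 CPM in GRWD-1 auxin libraries and 2786 ± 4700.2 CPM in GRWD-1 ethanol libraries, as ethanol replicate 3 stood far above the other libraries. It was not called in GRWD-1 and averaged 60.4 ± 12.9 CPM in TSR-2 auxin libraries and 62.4 ± 2.44 CPM in TSR-2 ethanol libraries (SD).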
